A study of Mus musculus with 72 samples.

Results

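Of 16706 genes with at least 1 read on the opposite strand in livers of a mouse study of circadian misalignment, 572 had a mean antisense count of at least 5 over all 72 libraries, and these 572 are described here; they were chosen by that mean count. An antisense count is the number of reads that lay on a gene but pointed against it. The livers came from wild-type C57bl6 mice of both sexes, aged 8 to 16 weeks, held in 12 h of light and 12 h of darkness with food and water freely available. All mice, controls included, ate a diet with 42% of its calories from fat from the first week of the schedule onward. The schedule that set misaligned apart from control mice is not described in the labels. Female control, female misaligned, male control and male misaligned livers were each collected at clock times 0, 4, 8, 12, 16 and 20 h, with 3 mice per time.

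Both strands of a locus can be copied into RNA, and in a stranded library the orientation of a read shows which strand it came from. Antisense reads arise where a gene on the other strand runs into or across the first gene, where a promoter fires in both directions, or where a separate non-coding RNA is made. In the liver a large share of genes is copied in a daily rhythm set by a feedback loop in which BMAL1 and CLOCK activate Per, Cry and Nr1d1 genes, so opposite strands of a locus may peak at the same hour or at different hours.

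The sense gene counts totalled 11551524 to 12529963 per library and the antisense gene counts 23978 to 36995, which is 0.201% to 0.303% of the sense counts. The 572 genes held 81.4% of all antisense counts. The mitochondrial gene mt-Nd6 alone held 41.2%, between 29.3% and 53.6% in single libraries, so antisense counts were scaled by the sense table of the same libraries. The hepatocyte markers (Alb, Ttr, Apoa1, Apob, Serpina1a, Cps1 and Hnf4a) summed to between 862675 and 1596786 sense counts in every library, against 720 to 11804 for 8 erythroid and platelet genes. Macrophage markers ranged from 2659 to 26998, stellate and endothelial markers from 4284 to 19322 and biliary markers from 441 to 8121, with overlapping ranges in the 4 groups of sex and treatment. No gene of these 4 lists of other cell types had a mean antisense count of 5. In whole liver, fewer cells of a type and less RNA per cell cannot be told apart.

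One locus the results return to is Thra, whose 3′ end crosses the 3′ end of Nr1d1 on the other strand. The stretch below is coding sequence on both strands. It is printed in the direction of Thra (GRCm38, chr11:98768223-98768459, plus strand, from the GENCODE transcript), and the 197 bases in capitals, 98768223 to 98768419, are the coding overlap; the 40 lower-case bases that follow code for Thra alone.
Thra: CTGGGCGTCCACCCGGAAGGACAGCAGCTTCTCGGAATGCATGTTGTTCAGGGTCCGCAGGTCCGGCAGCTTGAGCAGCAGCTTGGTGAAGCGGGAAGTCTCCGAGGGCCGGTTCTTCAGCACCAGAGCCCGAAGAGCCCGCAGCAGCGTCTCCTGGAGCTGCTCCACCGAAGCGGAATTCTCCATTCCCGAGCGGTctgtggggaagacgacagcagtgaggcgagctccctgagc

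The next sequences are the 250 bases before the start of the opposite-strand neighbours whose own sense rhythm lay closest to the antisense rhythm of a member. The choice took neighbours with a sense rhythm of amplitude 0.5 or more and a peak under 3 h from the antisense peak; 9 neighbours met it, 7 had an entry in the RefSeq promoter table (GRCm38.p6), and 5 were left after windows with an annotated exon were set aside. Of the 5, the predicted gene Gm15401 is not shown. Capitals mark matches on either strand to an E-box (CACGTG), a D-box (TTATGTAA or TTACGTAA) or a ROR element (TAGGTCA). Nr1d1 faces Thra (chr11:98775378-98775627, minus strand), Nr1i3 faces Tomm40l (chr1:171213720-171213969, plus strand), Nrg4 faces Fbxo22 (chr9:55283626-55283875, minus strand) and Acot4 faces 4732463B04Rik (chr12:84038129-84038378, plus strand).
Nr1d1: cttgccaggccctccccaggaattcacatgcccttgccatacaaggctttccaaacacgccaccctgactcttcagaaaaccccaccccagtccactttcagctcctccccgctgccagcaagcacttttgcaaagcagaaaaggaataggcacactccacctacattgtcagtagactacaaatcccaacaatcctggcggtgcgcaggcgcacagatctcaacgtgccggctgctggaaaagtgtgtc
Nr1i3: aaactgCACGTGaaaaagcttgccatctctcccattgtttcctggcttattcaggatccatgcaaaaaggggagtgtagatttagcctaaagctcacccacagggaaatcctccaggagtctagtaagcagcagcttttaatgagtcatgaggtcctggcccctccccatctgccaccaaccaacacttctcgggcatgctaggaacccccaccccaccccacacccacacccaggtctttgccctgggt
Nrg4: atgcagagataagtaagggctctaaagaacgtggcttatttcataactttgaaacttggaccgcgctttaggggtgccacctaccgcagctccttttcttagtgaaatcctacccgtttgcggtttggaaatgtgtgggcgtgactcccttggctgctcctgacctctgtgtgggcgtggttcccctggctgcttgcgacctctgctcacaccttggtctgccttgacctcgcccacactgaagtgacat
Acot4: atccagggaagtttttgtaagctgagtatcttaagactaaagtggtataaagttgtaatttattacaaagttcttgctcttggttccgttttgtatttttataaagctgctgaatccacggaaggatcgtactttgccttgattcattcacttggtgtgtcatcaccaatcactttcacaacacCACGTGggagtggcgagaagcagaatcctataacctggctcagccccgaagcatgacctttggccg

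The E-box letters occurred in the Nr1i3 and Acot4 windows. No E-box, D-box or ROR element letters occurred in the Nr1d1 and Nrg4 windows, or in those of Gm15401. Among all 32851 promoter windows of the same length in that table, 6.02% held the E-box, 0.931% a D-box and 2.23% the ROR element. A match is a run of letters and was not tested as a binding site.

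Most of the 572 loci faced a gene on the other strand. An exon of 365 genes (63.8%) overlapped an exon of an opposite-strand gene, 41 (7.17%) overlapped only in the gene body, 121 (21.2%) had an opposite-strand gene within 10 kb and 45 (7.87%) had none. Among 13283 genes with a mean sense count of at least 10, exon overlap was found in 30% and no opposite-strand gene within 10 kb in 26.1%. Of the 365 overlaps, 211 were convergent (tail to tail), 59 divergent (head to head) and 95 nested, with a median of 437 shared exon bases. In 257 of the 365 the opposite gene had the higher mean sense count, and the antisense count was a median 3.94% of the neighbour's sense count. Where several genes overlapped, the one with the highest mean sense count was taken as the neighbour, with exon overlap first, which favours a high count. Without overlap the nearest gene was taken. By annotation 408 members (71.3%) were protein-coding genes, 67 were antisense RNAs, 36 were lincRNAs and 29 carried the label TEC, a transcript still to be verified.

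The antisense share, antisense counts as a percent of both strands, had a median of 13.9% with quartiles of 1.94% and 88.9%. It was under 1% in 95 genes, 1 to 10% in 170, 10 to 50% in 96 and over 50% in 211, and in 37 genes no sense count was recorded at all. The median share was 21.2% in genes with exon overlap and 0.374% in genes with no opposite-strand gene within 10 kb, whose median sense count was 1424. The count threshold chose the members, so these levels are a description. The 3 genes just inside it, Rpl18, 3110062M04Rik and Erp29, all had a mean of 5, and the 3 just outside were Vasn at 4.94, Kctd15 at 4.99 and Vat1 at 4.99. The mean was at least 5 in all 4 groups of sex and treatment for 466 members and lower in 1 or more groups for 106.

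**Figure D1:**
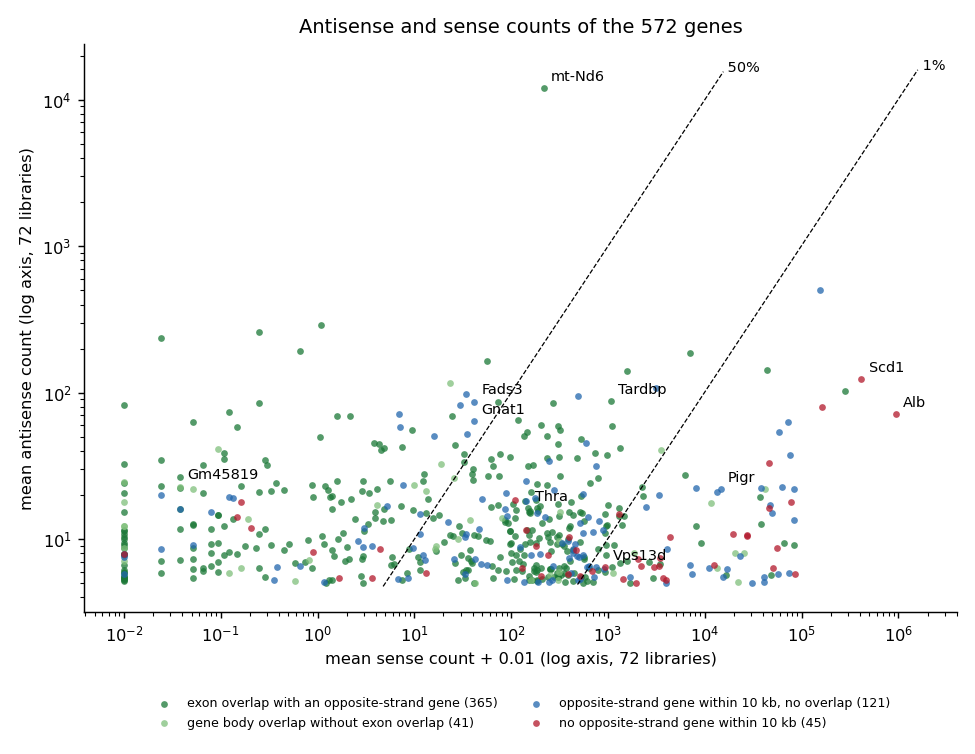
Mean antisense count of each of the 572 genes against its mean sense count plus 0.01, both on log axes, over 72 libraries. Colours give the position of the gene relative to opposite-strand genes, and dashed lines mark antisense shares of 1% and 50%. Genes with exon overlap spread over all shares, and Alb and Scd1, with no opposite-strand gene within 10 kb, lie far to the right of the 1% line.

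The largest antisense count belonged to mt-Nd6, a complex I subunit gene on the mitochondrial strand opposite to the other protein genes, with a mean of 11963.7 against 217.6 sense counts, a share of 98.2%. It shares 14 annotated bases with mt-Nd5 on the other strand. The antisense count of mt-Nd6 ranged from 7021 to 14184 in female controls and from 9642 to 16918 in male controls. Next came mt-Cytb at 505.5, then Hcn3 at 290.8, which lies opposite Pklr, the liver pyruvate kinase gene; Gm10252 at 259.6, opposite the ferritin light chain gene Ftl1; Gm47162 at 237.7, opposite Scp2-ps2; and B430119L08Rik at 193.1, opposite Serpina1c. In these 4 the share was between 99.6% and 99.99%, so nearly all reads assigned to the locus ran in the direction of the neighbour. Cyb5r3 (187.2, share 2.6%), Ocel1 (165.2, share 74.7%, opposite the receptor gene Nr2f6), mt-Nd5 (142, share 0.322%) and Tcp1 (140.1, share 8.10%) completed the 10 highest.

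Genes that fill the liver with message had many antisense reads but tiny shares. Alb, which encodes albumin, had a mean of 71.6 antisense counts beside 939235 sense counts, a share of 0.00762%, and the desaturase gene Scd1 had 124 beside 415745.6, a share of 0.0298%. Among 148 genes with a mean sense count of at least 10000, of which 48 were members, the share had a median of 0.0155%, ranged from 0.00259% to 0.325%, and lay between 0.00677% and 0.0494% from the tenth to the ninetieth percentile. Xist, a female-specific nuclear RNA, was taken as a rough guide to reads on the wrong strand. It had 37 antisense and 121515 sense counts over the female libraries, a share of 0.0304% (95% exact interval 0.0214% to 0.0420%, counting error only). The male libraries held 3 antisense and 15 sense counts. An antisense RNA is described at the Xist locus, so its share can include reads that are not wrong-strand copies. The shares of 14 secreted-protein genes among the members, from 0.00679% to 0.0594%, and of 9 liver enzyme genes, from 0.0126% to 0.0723%, reached both below and above the Xist interval. How many of their antisense reads were copies of the sense strand was not tested.

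No core clock gene was among the 572. Of the 19 in the list, 18 had at least 1 antisense read and none reached a mean of 1, with Clock highest at 0.889. Per2, a repressor of the loop for which an antisense RNA is known in liver, had a mean of 0.444 antisense counts over its exons. The intron table, which the choice of members did not use, held a mean of 30.4 antisense counts over the introns of Per2, and these cycled in the controls, peaking at 1.13 ± 0.42 h (SE) with a log2 amplitude of 1.73, against 12.5 h for Per2 sense counts (edgeR quasi-likelihood, adjusted p = 1.95e-09 over 2737 genes with intron counts). E2f8, a cell cycle repressor on the list of clock outputs, was a member with no antisense rhythm called. Bace1, a protease gene with a described antisense RNA, was a member with an antisense share of 10.4%.

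Rhythms were tested in edgeR with a 24-h cosine per group of sex and treatment, over 2044 genes with a mean antisense count of at least 1, and a gene was called at a Benjamini-Hochberg adjusted p under 0.05. The amplitude is the log2 distance from the daily mean to the peak. Averaged over both control groups, 36 of the 572 members cycled, where 2.84% of the 2044 tested genes were called. Their amplitudes ran from 0.29 to 2.08 with a median of 0.69. The peak lay from 0 to 6 h in 4 genes, from 6 to 12 h in 10, from 12 to 18 h in 6 and from 18 to 24 h in 16. By position, 24 of the 365 genes with exon overlap, 2 of 41 with gene body overlap, 9 of 121 with a near neighbour and 1 of 45 without one were called. Without replicate 1, 2 or 3 in every group, 16, 15 and 20 members were called.

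Thra encodes thyroid hormone receptor alpha and Nr1d1 encodes REV-ERBα, a heme-binding repressor of the clock. Thra (chr11:98740638-98769006, plus strand) shared 263 exon bases with Nr1d1, and its antisense counts in the 6 control livers at each clock time were lowest 5, median 17.5 and highest 28 at 0 h, 22, 31 and 65 at 4 h, 19, 24.5 and 47 at 8 h, 4, 7.5 and 23 at 12 h, 0, 1.5 and 3 at 16 h, and 0, 3 and 6 at 20 h. All livers at 4 and 8 h lay above all livers at 16 and 20 h. The sense counts of Thra changed far less, from a median of 205 at 0 h to 119.5 at 16 h, and the ranges at these times overlapped. Nr1d1 sense counts went from a median of 1068.5 at 4 h to 53 at 20 h. Thra antisense peaked at 5.23 ± 0.40 h (SE) with an amplitude of 2.06 ± 0.24 (adjusted p = 1.85e-09). Thra sense peaked at 0.52 h (amplitude 0.26) and Nr1d1 sense at 5.49 h (amplitude 2.24). In a fit of both strands per library, the log ratio of Thra antisense to Thra sense cycled with an amplitude of 1.97 ± 0.25 (adjusted p = 1.78e-09), while no cycle was called in its ratio to Nr1d1 (amplitude 0.07, adjusted p = 0.951). Thra antisense reads in the shared exon bases run in the direction of Nr1d1, so the same reads may be in both counts.

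**Figure D2:**
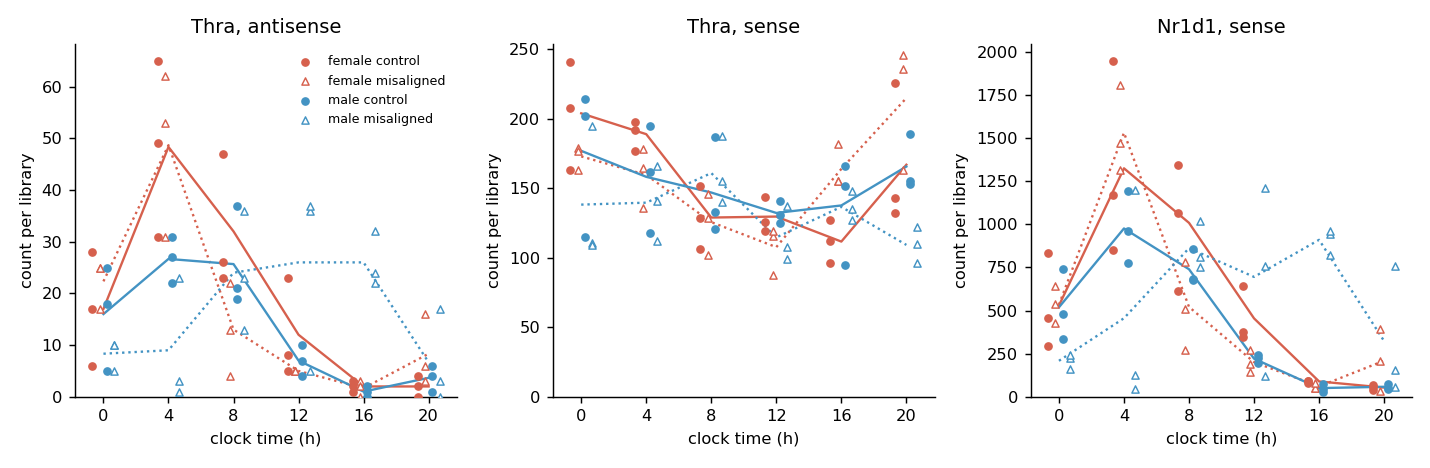
Counts per library against clock time in hours for Thra antisense, Thra sense and Nr1d1 sense; points are single livers, shifted sideways by group, and lines join the means of 3 mice. In the controls and in misaligned females Thra antisense and Nr1d1 sense are high at 4 h and lower at 16 and 20 h, and in misaligned males both are high at 16 h.

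Gm45819, a TEC gene (chr7:110119990-110121740, plus strand) with 22.8 antisense and 0.0278 sense counts, had the largest amplitude. Its counts in the 6 control livers were 0 to 4 at 0 h, 0 to 16 at 4 h, 34 to 46 at 8 h, 45 to 64 at 12 h, 10 to 28 at 16 h and 7 to 12 at 20 h. The livers at 8 and 12 h thus did not overlap with those of any other time. The amplitude was 2.08 ± 0.22 (SE) and the peak 11.5 ± 0.35 h (adjusted p = 2.92e-11). The annotated neighbour by the rule used, 1600010M07Rik, had no sense rhythm called (adjusted p = 0.271), and the ratio to it cycled (adjusted p = 1.44e-06). Looked up after these values were seen, the next gene on the same strand was Wee1, which encodes a kinase that delays mitosis and whose start lies 306 bases beyond the end of Gm45819, so that the antisense reads run away from Wee1. Wee1 sense counts in controls had medians of 36.5 at 0 h, 252.5 at 8 h and 254 at 12 h, and peaked at 11 h (amplitude 1.27 ± 0.10).

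Vps13d, a lipid-transfer protein gene (chr4:144972622-145195005, minus strand), cycled in antisense with no opposite-strand gene within 10 kb. Its antisense counts in control livers were 6 to 18 at 0 h, 1 to 5 at 4 h, 0 to 5 at 8 h, 0 to 2 at 12 h, 3 to 19 at 16 h and 7 to 31 at 20 h. Every liver at 0 and 20 h lay above every liver at 4, 8 and 12 h. The amplitude was 1.67 ± 0.24 and the peak 20.3 ± 0.49 h (adjusted p = 2.46e-08), whereas the sense counts, with a median between 827.5 and 1064.5 at every time, had an amplitude of 0.01 (adjusted p = 0.978). In the exon table the entry with the most antisense reads was the last exon (mean 9.57 of 21.4 summed over exon entries, which can share reads); with the widened ends of that table it spans chr4:144972322-144975268. The antisense to sense ratio cycled with an amplitude of 1.62 ± 0.25 (adjusted p = 3.19e-07).

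Gnat1, a transducin subunit gene known from the retina, had more antisense than sense reads, a share of 60.4%. Its control antisense counts had medians of 51.5 at 0 h, 103 at 4 h, 88.5 at 8 h, 57 at 12 h, 32 at 16 h and 33.5 at 20 h, and its sense counts had medians of 16, 72.5, 82, 52.5, 14.5 and 9.5 at those times. Both strands were high at 4 and 8 h, and the sense strand had the larger swing. The amplitudes were 0.81 ± 0.11 for antisense, with a peak at 6.05 h, and 1.63 ± 0.20 for sense, with a peak at 7.69 h, and the ratio of the strands cycled (adjusted p = 0.000244). A930036K24Rik, which starts 370 bases away on the other strand, peaked at 5.34 h, with no cycle called in the ratio to it (adjusted p = 0.856).

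B230206H07Rik, a non-coding gene opposite the actin regulator gene Eps8l2, peaked in antisense at 20.3 ± 0.57 h with an amplitude of 0.84 ± 0.13 (adjusted p = 1.19e-06), and Eps8l2 sense counts peaked at 22.4 h. Control antisense counts were 17 to 45 at 20 h and 7 to 23 at 12 h, so these times overlapped between 17 and 23. Fads3, a desaturase family member, lies 2655 bases from Fads2, the delta-6 desaturase gene, tail to tail. Its antisense counts had a median of 145.5 at 8 h and 37 at 16 h, with livers between 44 and 261 at 8 h and between 26 and 50 at 16 h, so the ranges overlapped. The Fads3 antisense counts peaked at 7.29 ± 0.58 h. Their ratio to Fads3 sense, which had no rhythm called, cycled (adjusted p = 1.93e-05), as did their ratio to Fads2, which peaked at 10.7 h (adjusted p = 1.32e-05). Introns of Fads3 held a mean of 428.4 antisense counts, which peaked at 7.39 h.

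**Figure D3:**
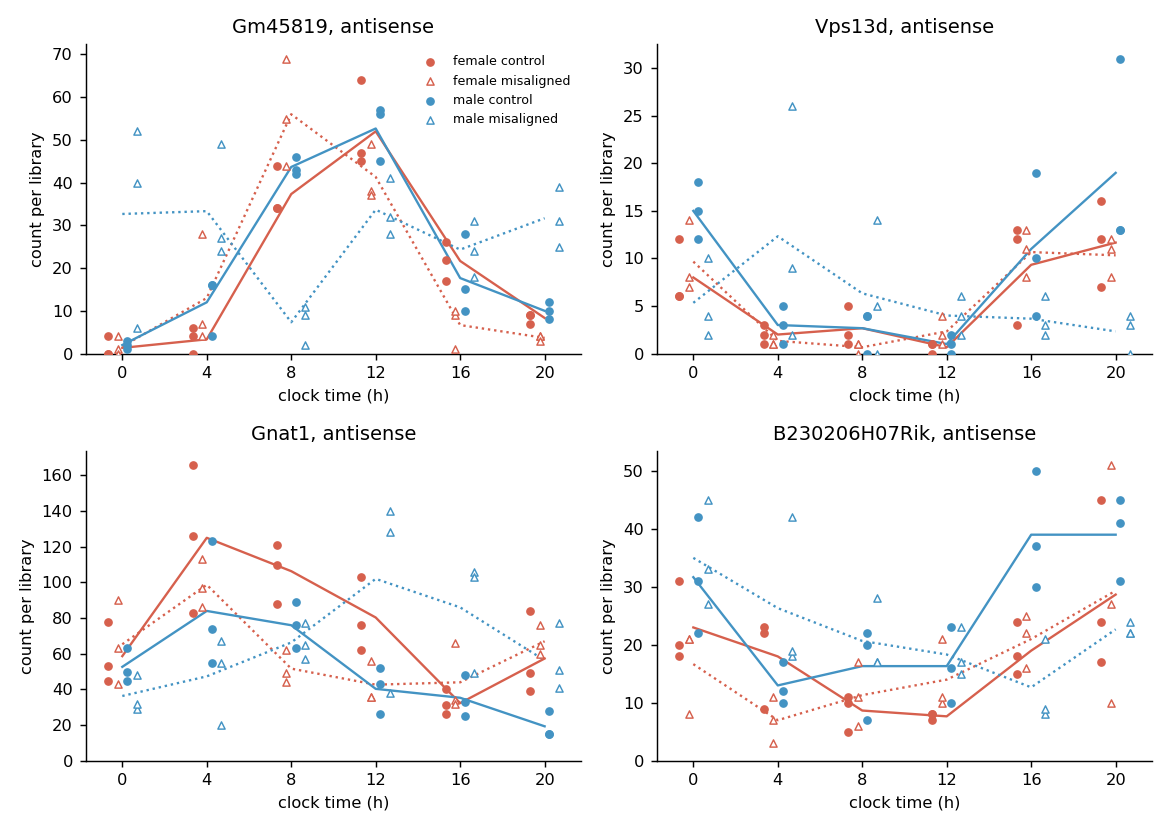
Antisense counts per library against clock time in hours for Gm45819, Vps13d, Gnat1 and B230206H07Rik; points are single livers, shifted sideways by group, and lines join the means of 3 mice. Gm45819 is highest at 8 and 12 h and Vps13d at 0, 16 and 20 h in the controls and in misaligned females, and misaligned males do not follow these courses.

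Of the 36 members with an antisense rhythm, 27 had enough sense counts to be tested on the sense strand, and 9 of these had a sense rhythm too; for comparison 124 of 407 members with sense counts had one, where 25.7% of 15066 sense genes were called. In these 9 the strands differed by a median of 9.67 h. Syngr2 and Gnat1 had peaks under 3 h apart, Thra and Sh2b3 between 3 and 9 h, and Tardbp, Timeless, Gm20632, Tcp1 and Fbxo22 over 9 h. Without a replicate number the antisense call of Tardbp was lost in all 3 fits, that of Timeless in 2 and that of Gm20632 in 1. Those of Thra and Gnat1 were kept in all 3, and the others were not followed in these fits. Tardbp, which encodes the RNA-binding protein TDP-43, overlaps Masp2, a complement protease gene, by 1817 exon bases. Its antisense counts in controls had a median of 64 at 0 h and 108.5 at 12 h, and its sense counts 1294 at 0 h and 881.5 at 12 h, with no overlap of the 6 livers between these times on either strand. The antisense peak at 10.5 h lay 10.9 ± 0.95 h (SE) before the sense peak at 21.4 h, and the ratio cycled with an amplitude of 0.71 ± 0.08 (adjusted p = 2.74e-11). The SE of such a gap between peaks treats the strands as independent, although both were counted in the same livers. Masp2 peaked at 12.8 h with an amplitude of 0.11 that missed the threshold (adjusted p = 0.0507).

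Timeless, a replication fork gene related to a fly clock gene, had an antisense peak at 19.4 ± 0.86 h and a sense peak at 9.74 h, 9.67 ± 1.18 h apart (ratio adjusted p = 0.000309). Antisense counts ran from 8 to 23 at 20 h and from 4 to 8 at 8 h. Tcp1, a subunit of the cytosolic chaperonin, overlaps the thiolase gene Acat3 tail to tail and peaked in antisense at 21.1 h, against 11.2 h in sense and 22.4 h in Acat3 sense. Fbxo22, a ubiquitin ligase subunit gene, peaked in antisense at 10.5 h and in sense at 23.5 h, and Nrg4, a secreted growth factor gene that overlaps it by 368 exon bases, peaked in sense at 11.9 h. The Gm20632 antisense peak at 18.5 h lay 10.6 ± 1.20 h from its sense peak at 5.09 h.

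The ratio of antisense to own sense cycled in 38 of 407 members tested, where 3.66% of 1530 genes were called. In single groups the ratio cycled in 15 of 407 members in female controls (1.57% of tested genes), 11 in misaligned females (0.98%), 11 in male controls (1.37%) and 0 in misaligned males (0.196%, with 88 tested genes at an unadjusted p under 0.05 in edgeR). In the controls of both sexes the antisense strand alone had a called rhythm in 9 of the 38, the sense strand alone in 15, both in 8 and neither in 6. Asap2, an ARF GTPase-activating protein gene, led by p: its sense counts had a median of 283.5 at 20 h and 55 at 8 h with no overlap, its antisense counts medians of 13.5 and 11, and the ratio an amplitude of 1.28 ± 0.14 (adjusted p = 2.03e-12). Nrg4 (ratio amplitude 1.34) and Nelfe (0.67) were of the same kind, with a sense rhythm called and none in antisense.

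Set against the opposite-strand neighbour, 30 of the 36 rhythmic members had a neighbour with enough counts. Of these neighbours 23 had a sense rhythm, where 25.7% of 15066 sense genes were called. The 23 antisense peaks lay a median of 1.37 h from the neighbour's sense peak; 18 were under 3 h apart, 4 were between 3 and 9 h and 1 was over 9 h. Both strands were counted in the same libraries. Where exons overlap, a read antisense to a member runs in the direction of its neighbour. The same reads may then be in both counts, and how they were assigned is not given. Close peaks and a flat ratio at such loci may therefore not be independent readings. Tomm40l and Nr1i3, which encodes the xenobiotic receptor CAR, both peaked at 12.4 h, and Aff4 and Leap2, a liver peptide hormone gene, at 21.1 and 21.4 h. Among the 30 rhythmic members with a testable neighbour, the ratio to the neighbour cycled in 9. One of them was Gpr137b-ps (edgeR, adjusted p = 0.0187), although its peak lay only 2.45 h from that of its neighbour Ero1lb. Over all members with a testable neighbour, the ratio to the neighbour cycled in 14 of 444, where 1.84% of 1412 genes were called. Besides Gm45819 and Fads3 these included Mrs2, Fbxl21 and Syt12, and in Reep6 it was the neighbour Pcsk4 that had the rhythm.

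**Figure D4:**
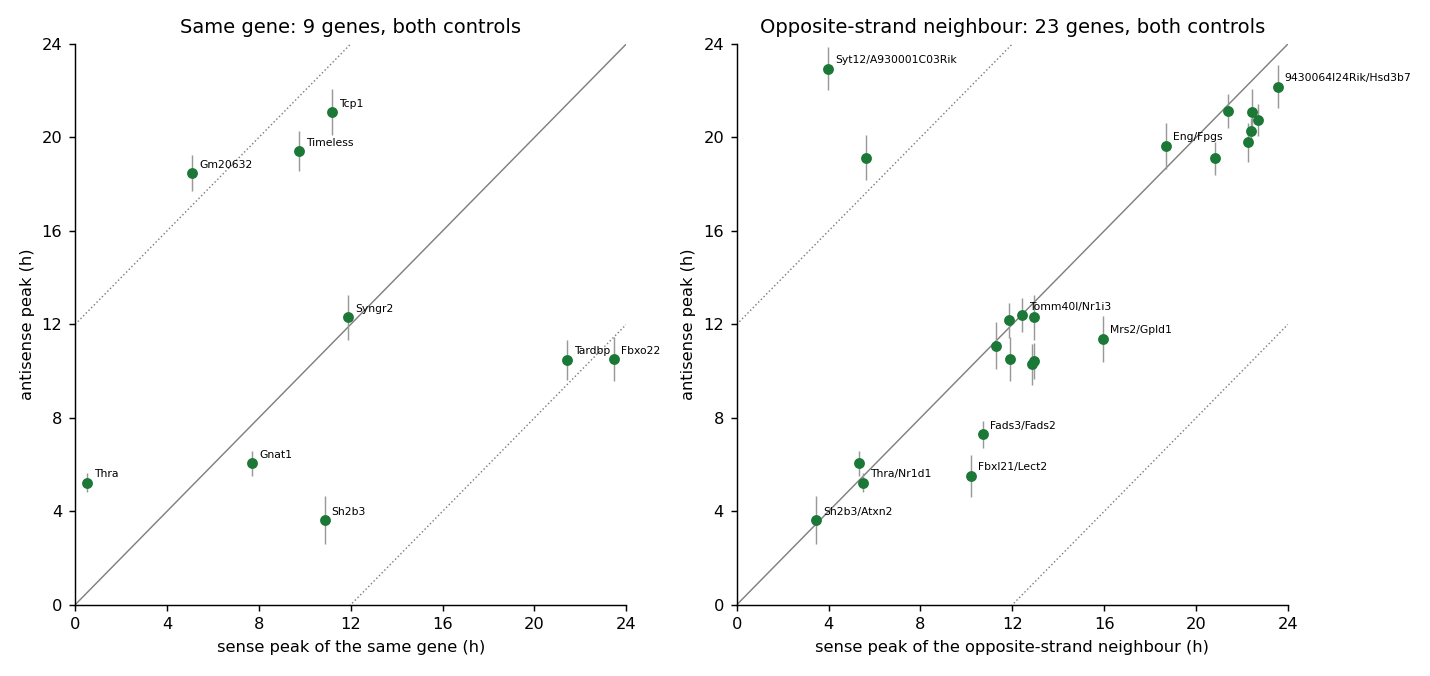
Peak of the antisense counts in hours against the sense peak of the same gene (left, 9 genes) and of the opposite-strand neighbour (right, 23 genes) in controls of both sexes, for pairs with both rhythms called; bars are SE of the antisense peak, the solid line marks equal peaks and dotted lines a difference of 12 h. Counted around the clock, 18 of 23 genes on the right have peaks under 3 h apart, and 5 of 9 on the left have peaks over 9 h apart.

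Reads on introns, which the choice of members did not use, gave a further readout. They come from the same libraries, and a transcript of the opposite-strand neighbour can also cover introns. Gene and intron peaks may therefore not be independent readings. Of 303 members with enough antisense intron counts, 30 cycled in controls, where 6.28% of 2737 genes were called. Of 21 members with a called antisense rhythm and enough intron counts, 14 were also called in introns and 7 were not, among them Vps13d (adjusted p = 0.939, mean intron count 1.97) and Tardbp (adjusted p = 0.188, mean 86). The 14 included Gnat1 (peaks at 6.05 and 5.87 h), Gpr137b-ps (19.8 and 20.0 h), Rab36 (24 and 0.709 h) and Timeless (19.4 and 18.7 h). Among these 14 the largest gap between the peaks was 2.95 h, in Aff4.

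In single groups fewer rhythms were called: 17 members in female controls (1.37% of tested genes called), 6 in misaligned females (0.44%), 8 in male controls (0.734%) and 0 in misaligned males (0%). The lowest adjusted p over all tested genes in misaligned males was 0.0675, with 118 tested genes at an unadjusted p under 0.05. Gm45819 illustrates the groups. At 0 h its counts were 1, 3 and 2 in male controls, 40, 52 and 6 in misaligned males, 0, 0 and 4 in female controls and 4, 1 and 0 in misaligned females. At 8 h they were 46, 43 and 42, then 9, 2 and 11, then 44, 34 and 34, and 69, 44 and 55 in the same order. Misaligned males were thus higher at 0 h and lower at 8 h than each of the other 3 groups.

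The change of the antisense rhythm with misalignment was called in males for 7 members, where 0.587% of tested genes were called, and in females for 0 (0%), where the lowest adjusted p over all tested genes was 0.209 and 127 tested genes had an unadjusted p under 0.05. The 7 were Gm45819 and Vps13d (both adjusted p = 0.000354), Thra and Gnat1 (both 0.00107), B230206H07Rik (0.0148), Gpr137b-ps (0.0343) and Aff4 (0.0481). On the sense strand the change in males was called in 58 of 407 members, where 9.23% of sense genes were called. In males Thra antisense peaked at 4.93 h with an amplitude of 1.94 in controls and the fitted peak in misaligned livers was 11.9 h with 1.07; Nr1d1 sense peaked at 5.07 h and had a fitted peak of 11.6 h. Neither fit in misaligned males was itself called as a rhythm. Vps13d antisense peaked at 20.7 h in male controls, and in misaligned males the fitted peak was 4.77 h with no rhythm called. In misaligned males at 16 h the Thra antisense counts were 32, 22 and 24, against 2, 0 and 1 in male controls, while misaligned females had 3, 0 and 2. Without replicate 1, 2 or 3 in every group, 0, 4 and 3 members were called, and each of the 7 calls was lost in 2 of these 3 fits. With limma-voom the calls of Vps13d (adjusted p = 0.0604), B230206H07Rik (0.0681) and Gpr137b-ps (0.0860) were lost, and that of Aff4 was lost on leaving out any of 45 of the 72 libraries. The number called in males was 4 without the misaligned male replicate 3 at 4 h.

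The difference between the sexes in this change was itself tested and was called in 3 members (Gm45819, B230206H07Rik and Thra), where 0.196% of tested genes were called. The fits without replicate 1, 2 or 3 gave 0, 2 and 0 calls. Those of Gm45819 and Thra were lost in all 3 of these fits, and that of B230206H07Rik was lost in 2.

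The mean antisense level, averaged over clock times, differed between misaligned and control females in 1 member (0.0489% of tested genes called). This was Pigr, the receptor that carries IgA into bile. Its antisense counts in 18 female controls were lowest 14, median 39 and highest 60, and in 18 misaligned females 8, 18 and 29, so the groups overlapped between 14 and 29. The log2 difference was -0.99 ± 0.16 (SE, adjusted p = 8.41e-06), and that of Pigr sense counts -0.06 ± 0.12 (adjusted p = 0.952). The adjusted p was 0.0505 without replicate 3. In males the Pigr difference was -0.16 ± 0.18 (adjusted p = 0.917), and no member was called in males (0% of tested genes, 122 of which had an unadjusted p under 0.05). The last exon held a mean of 19.3 of the 24.9 antisense reads summed over the exon entries of Pigr. The erythroid and platelet markers moved with these groups, with a summed sense count of 1222, 4296 and 11804 (lowest, median, highest) in female controls and 720, 1700 and 7398 in misaligned females. Macrophage markers had medians of 8104 and 7971. Their part in the Pigr result was not tested, and none of these genes had a mean antisense count of 5.

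Sex differences between the controls were more frequent. The mean antisense level differed in 111 of the 572 members, where 9% of tested genes were called, with 64 higher in females (4.94% of tested genes) and 47 higher in males (4.06%), and 30 differed by more than 1 on the log2 scale. On the sense strand 133 of 407 members differed, where 32.9% of sense genes were called. Markers of other cell types also differed in median between female and male controls: 6511 and 10069 for the stellate and endothelial sum, 1255 and 2194 for the biliary sum, 4296 and 2519 for the erythroid and platelet sum and 8104 and 6197 for the macrophage sum, with overlapping ranges. Their part in the sex differences was not tested. A gene expressed in 1 sex could pass the threshold on the mean through that sex alone. A mean under 5 in 1 or more groups was found in 106 members, and how many of the 111 were among them was not counted. Of the genes named below, Apoa4 and Serpina3k in female controls and Tom1 in male controls had medians under 5. The apolipoprotein gene Apoa4 had antisense counts of 0 to 7 (median 4) in female controls and 2 to 51 (median 23) in male controls, a log2 difference, female minus male, of -2.56 (adjusted p = 8.54e-09), beside -2.43 for its sense counts; Gm10680 and Gm47528, on the other strand at the same locus, differed by -2.57 and -2.20. Serpina3k, a protease inhibitor gene, had medians of 2.5 in females and 10.5 in males (log2 -2.12), and its sense counts differed by -1.58. The 4732463B04Rik antisense counts were higher in females by 1.28 and the sense counts of the thioesterase gene Acot4, opposite to it, by 1.08.

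In other loci the strands did not differ alike between the sexes in these estimates. Tom1, an endosomal sorting gene, had antisense counts of 1 to 34 (median 10.5) in female controls and 0 to 8 (median 2) in male controls. The log2 difference was 2.23 (edgeR, adjusted p = 5.88e-09), beside a smaller one of 0.15 in sense (adjusted p = 0.0347). Esyt1 antisense was higher in females by 1.16 (edgeR, adjusted p = 2.75e-06), beside -0.18 in sense (adjusted p = 0.0606). Gm17281 antisense had a log2 difference of -2.35, beside 0.01 in the sense counts of its opposite-strand neighbour Pacsin3. Reads of that pair run in the same direction, so it does not compare strands. Pigr antisense was higher in females by 1.27 ± 0.16 and Pigr sense by 0.67 ± 0.12. The difference between strands in the sex effect was not tested.

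**Figure D5:**
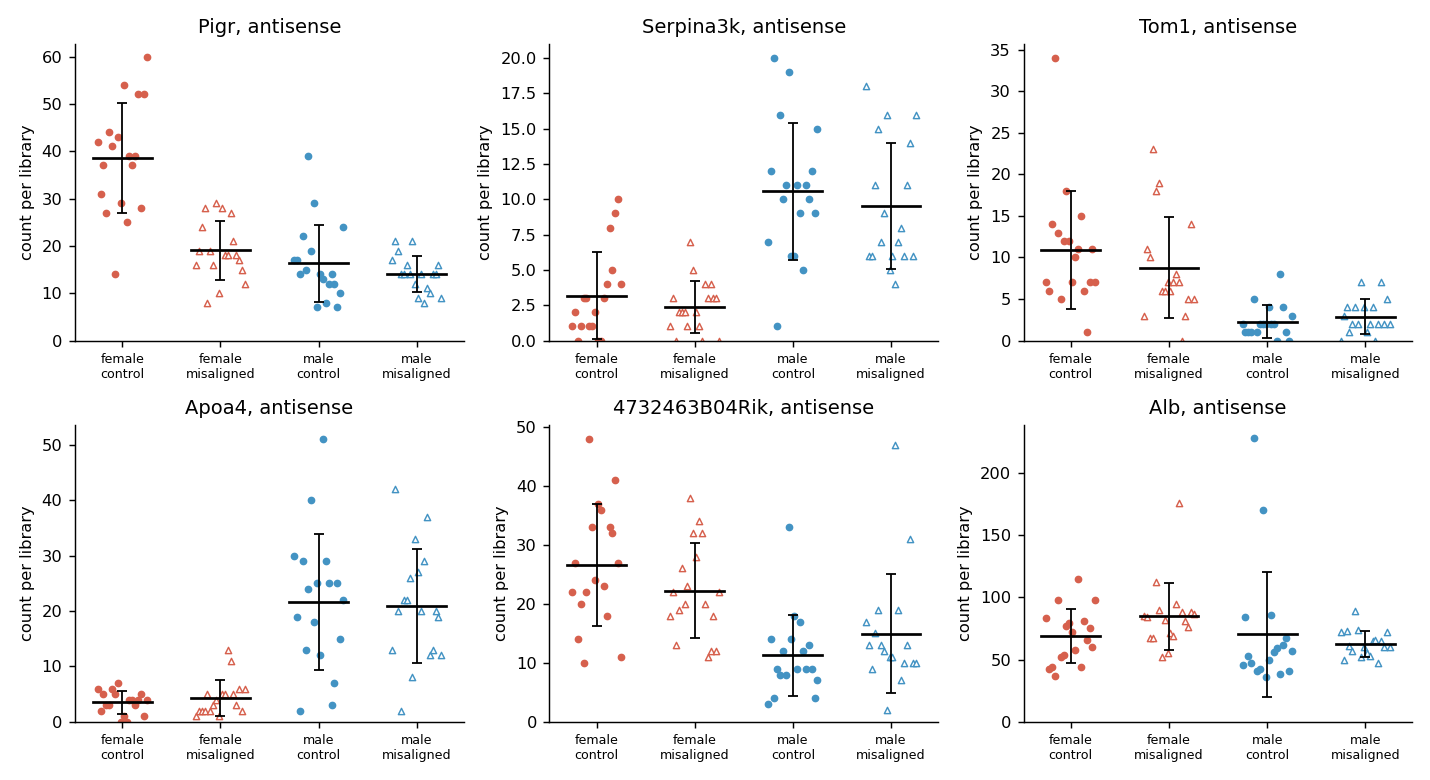
Antisense counts per library of Pigr, Serpina3k, Tom1, Apoa4, 4732463B04Rik and Alb by sex and treatment, 18 libraries per group; horizontal lines are means and bars are SD. Pigr is highest in female controls, Tom1 and 4732463B04Rik are higher in females and Serpina3k and Apoa4 in males, with overlapping groups.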

How the data were processed

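Liver RNA of 72 mice was sequenced as poly(A)-selected, stranded, paired-end libraries. The submitters' processing notes name STAR 2.6.0c and the build GRCm38. The authors deposited whole-number counts per gene, exon and intron on each strand; the MIN version of the tables was used, and every column was matched to a sample. How reads shared by genes on both strands were assigned is not given in the sources used here. Exon and intron tables served only to locate antisense reads and for the intron test.

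Antisense counts were fitted with edgeR 4.0.16 (glmQLFit, robust), using all libraries, a cosine and sine of 24 h per sex and treatment or 24 group means, and library sizes and TMM factors from the sense table. The ratio tests fitted both strands of each library together with a term per library. Loci were classed with GENCODE vM21 gene models, which use GRCm38. On simulated data 59.4% of 32 members given an amplitude of 0.5 and all 25 given an amplitude of 1 were recovered, with 0.217% of unchanged genes called. Every simulated gene had the same spread beyond counting error and no sex difference in controls, so these rates hold for that setting only. Counts are read counts, and the exact interval given for Xist covers counting error only. The SE values and p-values of the fits take the spread between mice into account.

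The rule for the members (a mean antisense count of at least 5) and the gene lists were chosen with earlier results of these data known. Genes were named by the highest antisense count, the smallest p in each comparison (up to 20 for rhythm in controls, up to 10 otherwise), membership of the clock lists, or closeness to the threshold of 5; other rhythmic members and neighbours, Per2 introns and Wee1 were named after their values were seen. Results for some genes are not reported here.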

Additional observations from a re-analysis of the deposited data

Results flagged for a closer look

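The test of the difference between the sexes in the effect of misalignment on the antisense rhythm picked out 3 genes. These were Gm45819 (edgeR quasi-likelihood, adjusted p = 0.0156), B230206H07Rik (adjusted p = 0.0227) and Thra (adjusted p = 0.0314). In females the fitted amplitudes in control and misaligned livers were 2.33 and 2.52 for Gm45819, 0.90 and 0.83 for B230206H07Rik and 2.18 and 2.02 for Thra. In males they were 1.87 and 0.44, 0.86 and 0.59, and 1.94 and 1.07. The neighbouring Nr1d1 had an adjusted p of 0.00295 in the same test on sense counts. Leaving out 1 of the 72 libraries ended the call of Thra in 15 cases, of B230206H07Rik in 7 and of Gm45819 in 0. Leaving out a replicate number ended the calls of Gm45819 and Thra in all 3 fits and that of B230206H07Rik in 2.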

How the results depend on the processing

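Counts of called members moved most with the number of libraries and of genes tested. Rhythms in controls of both sexes went from 36 to 57 members with edgeR's filterByExpr and to 58 with only genes of mean 5 or more tested, and ranged from 15 to 20 without 1 replicate number and from 29 to 39 without 1 library. They fell to 24 members, 22 of them among the 36, when clock times were tested with 5 degrees of freedom. With limma-voom and with no filter 31 were called, of which 26 and 28 were among the 36. In female controls the 17 became 26 with filterByExpr and 6 to 11 without a replicate number, and 11 to 21 without 1 library, with 11 reached without the female control replicate 1 at 8 h. In misaligned females the 6 became 11 with either filter, 4 to 6 without a replicate number and 5 to 8 without 1 library; in male controls the 8 became 3 to 8 and 7 to 9. In misaligned males the 0 became 2 with no filter and 0 to 1 with 1 library left out, the 1 arising without the misaligned male replicate 2 at 4 h or replicate 1 at 12 h.

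The 7 rhythm changes in males became 4 with limma-voom 0 to 4 without a replicate number and 4 to 10 without 1 library; in females the 0 became 0 to 1. The 3 sex differences of that change became 5 with filterByExpr, 5 with no filter, 5 with DESeq2, 1 with limma-voom, 0 to 2 without a replicate number and 1 to 5 with 1 library left out. They were 1 without the female control replicate 2 at 4 h, the misaligned female replicate 2 at 4 h, the male control replicate 3 at 16 h, or the misaligned male replicate 3 at 4 h or replicate 1 at 16 h. The 1 mean change in females became 0 to 1, and the 111 sex differences 70 with no filter and 48 to 68 without a replicate number and 96 to 113 without 1 library.

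For the ratio to own sense, the 38 members became 19 to 24 without a replicate number. Testing only genes of mean 5 or more gave 26 in place of 15 in female controls, 17 in place of 11 in misaligned females and 20 in place of 11 in male controls. Without a replicate number these were 6 to 12, 6 to 8 and 5 to 8, and 0 to 1 in misaligned males. Of 20 named rhythmic members, 17 kept their call in every other setting run, 19 without each library and 8 without each replicate number; Tardbp and Syt12 missed the threshold when clock times were tested with 5 degrees of freedom (adjusted p = 0.0686 and 0.0969) and Timeless with limma-voom (adjusted p = 0.051).

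Replicate numbers did not pair the libraries: over 828 pairs with the same number the median correlation of deviations was -0.006, and 24 of 72 libraries were closest to their own number. With a replicate block 34 members were called rhythmic in controls, 6 changed in males and 109 differed by sex. Of the 572 members, 278 had a mean count of 5 to 10. On simulated data 19 of 32 members of any depth with an amplitude of 0.5 were recovered. Recovery at a mean of 5 to 10 alone was not computed.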
